A study of Mus musculus with 6 samples.

Results

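The 6 mature microRNAs (miRNAs) described here are the 2 arms of each of 3 mouse hairpins, mmu-miR-9-5p and mmu-miR-9-3p, mmu-miR-132-3p and mmu-miR-132-5p, and mmu-miR-212-3p and mmu-miR-212-5p, chosen by name from the 1966 mature miRNAs of the table. They were measured in extracellular vesicles (EVs), small membrane particles released by cells that carry RNA, by small RNA sequencing of 3 libraries of EVs from colon explants (colon EVs) and 3 of EVs from bone marrow–derived dendritic cells (BMDC EVs). All 6 libraries carry the label Rab27A fl/fl, mice whose Rab27a gene, for a small GTPase of vesicle secretion, is flanked by loxP sites, and no Cre is named in the labels. The mice were young adults of both sexes on a C57BL/6 background. The explants were opened whole colons with mixed cell types, kept for 16 h in medium with exosome-depleted serum before vesicles were collected by differential centrifugation, and fraction 2 of an iodixanol gradient was sequenced. The BMDCs were bone marrow cells cultured with GM-CSF in complete medium until day 7. The serum of that medium is not described as exosome-depleted, and the part of serum vesicles was not tested. Whether the BMDC EVs also went through the gradient is not clear, since the labels give it for colon samples only and the text of the study names it for both sources. Cell source, culture with its serum, and purification if it differed, cannot be told apart. No stimulated BMDC culture was sequenced, so induction of these miRNAs by activation was not measured here and the data give levels only.

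miR-9 is best known from the nervous system, where it acts on neural progenitors and neurons, and it is also raised when monocytes, neutrophils and dendritic cells meet Toll-like receptor ligands. miR-132 and miR-212 come from 1 transcript, are controlled by the transcription factor CREB in neurons, and are raised by inflammatory stimuli in myeloid cells. From each hairpin the 5p and the 3p arm are cut as a duplex. Usually 1 arm is kept by an Argonaute protein and the other is degraded, so in cells the ratio of the arms reflects which is retained. Here the ratio is of counts in EVs, and retention in the cells was not measured.

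The mature sequences show which members could bind the same targets and how far their reads can be told apart. They are from RefSeq (GRCm38.p6), which matched 6 of 6 members and 1675 of the 1966 names, and are written 5′ to 3′ with the seed, bases 2 to 8, in capitals.
miR-9-5p: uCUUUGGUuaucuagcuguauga
miR-9-3p: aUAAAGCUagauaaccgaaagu
miR-132-3p: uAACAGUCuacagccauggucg
miR-132-5p: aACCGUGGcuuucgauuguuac
miR-212-3p: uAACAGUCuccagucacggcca
miR-212-5p: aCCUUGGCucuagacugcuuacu

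miR-132-3p and miR-212-3p shared the seed AACAGUC, and none of the other names among the 1679 RefSeq mature miRNAs had the seed of any member. The 2 were identical at 17 of 22 positions, the leading 9 bases included, and differed by A10C, C14U, U17C, U20C and G22A, counted from 1 at the 5′ end with the base of miR-132-3p written first. The 5p arms of the same hairpins, miR-132-5p and miR-212-5p, had different seeds.

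The hairpins are shown because the position of each arm, in capitals, and the number of gene copies decide what a count of miR-9 or miR-132 can mean. The miR-9 arms are identical in 3 hairpins on different chromosomes. Mir9-1 lies at chr3:88215598-88215686, in an intron of the long noncoding RNA Gm3764 and opposite an annotated miRNA gene, Gm25641. Mir9-2 lies at chr13:83738814-83738885, in an exon of C130071C03Rik, and Mir9-3 at chr7:79505264-79505353, in an intron of Mir9-3hg. Mir212 at chr11:75173388-75173478 and Mir132 at chr11:75173682-75173747 both lie in an intron of 1700016P03Rik with 203 bases between them. All are on the plus strand of GRCm38.
Mir9-1: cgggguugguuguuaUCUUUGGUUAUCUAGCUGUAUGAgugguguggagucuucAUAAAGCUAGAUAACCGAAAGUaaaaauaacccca
Mir9-2: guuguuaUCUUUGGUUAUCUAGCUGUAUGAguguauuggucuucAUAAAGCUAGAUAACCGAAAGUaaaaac
Mir9-3: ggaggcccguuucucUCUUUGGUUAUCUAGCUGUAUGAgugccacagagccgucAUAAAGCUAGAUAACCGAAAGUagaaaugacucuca
Mir132: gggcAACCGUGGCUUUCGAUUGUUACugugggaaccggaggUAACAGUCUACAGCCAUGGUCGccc
Mir212: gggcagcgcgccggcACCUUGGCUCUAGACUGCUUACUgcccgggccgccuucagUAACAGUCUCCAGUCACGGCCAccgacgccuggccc

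Because the 3 mir-9 hairpins give the same mature arms, the counts do not say which gene was transcribed. The longest run of complementary bases between the 5p and the 3p arm was 12 bases in mir-9, 5 in mir-132 and 6 in mir-212. The deposited counts are estimates that need not be whole numbers, and values of miR-9-5p were not whole in 4 of 6 libraries, those of miR-9-3p in 4 of the 4 libraries above 0 and those of miR-132-3p in 3 of 6. How reads were divided among names is not stated, so the lowest values are uncertain by parts of a read. The related entry miR-9b-5p was listed at 0.33 counts in BMDC EV 3 and at 0 elsewhere.

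Library totals ran from 83980 to 645290 counts, and 771 miRNAs had a count in at least 1 library. Every pair of libraries of the same source differed by more than sampling noise (chi-square per degree of freedom of at least 7.34). Markers went with the labels. All 7 tested haematopoietic miRNAs were higher in BMDC EVs, and all 15 tested epithelial miRNAs and both tested muscle and mesenchyme miRNAs were higher in colon EVs. Of the epithelial miRNAs, miR-200a-5p, miR-200b-5p, miR-141-5p, miR-192-3p, miR-215-3p and miR-375-3p had under 10 counts in every BMDC EV library. They passed the minimum of 10 counts in 3 libraries through colon EVs alone, so their direction adds no support. Of the 220 tested miRNAs, each with 10 or more counts in 3 or more libraries, 169 (76.8%) passed the test between the sources at an adjusted p under 0.05. The BMDC EVs were the higher source for 89 of the 220 (40.5%) and the colon EVs for 80, so a called difference is common in these libraries. Nothing says that libraries of a source came from separate animals or cultures, and p-values then measure the spread between these libraries. In EV preparations, fewer vesicles from a cell type and less of a miRNA per vesicle cannot be told apart.

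The 6 members were all low in colon EVs and reached very different levels in BMDC EVs. Together they took 63, 30 and 19 counts of colon EV 1, 2 and 3, which is 0.00976%, 0.0129% and 0.0110% of those libraries. In BMDC EV 1, 2 and 3 they took 720, 340 and 684 counts, or 0.568%, 0.405% and 0.383%. Every member had each BMDC EV library above each colon EV library, a separation that 149 of the 771 miRNAs with any count (19.3%) also showed. Only 2 of the 6, miR-9-5p and miR-132-3p, had enough counts to be tested, and both were higher in BMDC EVs, beside the 40.5% of tested miRNAs called in that direction.

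**Figure D1:**
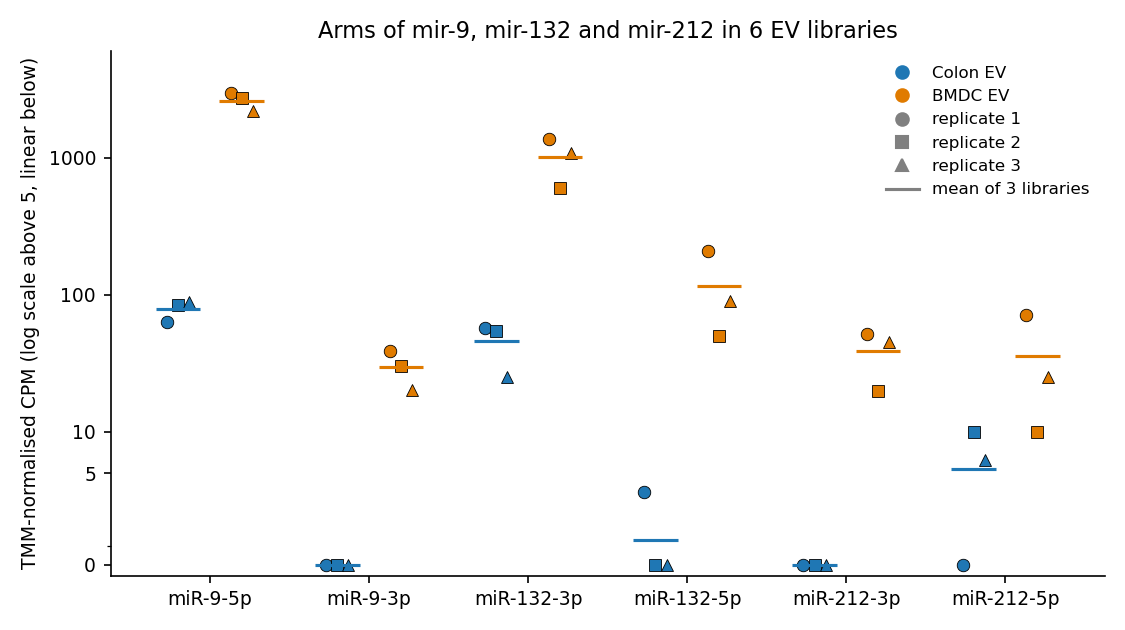
Level of each of the 6 members in each library, in TMM-normalized CPM (logarithmic axis), with colon EV and BMDC EV libraries as points. miR-9-5p reached 2180 to 2933 and miR-132-3p 601 to 1360 in BMDC EVs, and the other 4 arms stayed at or below 207.

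miR-9-5p, the arm of mir-9 that is generally the guide, was the most abundant member in 6 of 6 libraries. It led miR-132-3p by only 32 against 29 counts in colon EV 1. Its level, in CPM (counts scaled to the library total and the TMM factor), was 63.6, 84.5 and 87.9 in colon EV 1, 2 and 3 and 2933, 2694 and 2180 in BMDC EV 1, 2 and 3. The sources were far apart and the libraries of each source lay close together. The mean was 78.6 ± 13.2 CPM in colon EVs and 2602 ± 385 CPM in BMDC EVs (SD, n = 3 each). The log2 fold change was 5.09 (SE 0.294, 95% interval 4.51 to 5.66), a 34.0-fold higher level in BMDC EVs (adjusted p = 2.49e-11, edgeR quasi-likelihood test with Benjamini-Hochberg adjustment). By mean level it ranked 41 of the 220 tested miRNAs in BMDC EVs and 165 in colon EVs, and by log2 fold change it ranked 9.

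miR-132-3p, the generally dominant arm of mir-132, was the next most abundant. It stood at 57.6, 54.7 and 25.1 CPM in colon EV 1, 2 and 3, of which the last rests on 4 counts. It stood at 1360, 601 and 1082 CPM in BMDC EV 1, 2 and 3, so that the second BMDC library was far below the other two. The mean was 45.8 ± 18.0 CPM in colon EVs and 1014 ± 384 CPM in BMDC EVs (SD, n = 3 each). The log2 fold change was 4.38 (SE 0.414, 95% interval 3.57 to 5.19), or 20.8-fold (adjusted p = 2.23e-08, edgeR quasi-likelihood test). In a fit without BMDC EV 2, filtered and scaled anew, the fold was 34.6 for miR-132-3p and 46.1 for miR-9-5p. miR-9-5p was not low in BMDC EV 2, at 1.05 of its mean in BMDC EV 1 and 3. The part of the new filter and scaling in these folds was not tested. miR-132-3p ranked 65 of 220 by level in BMDC EVs, 180 in colon EVs and 23 by log2 fold change.

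**Figure D2:**
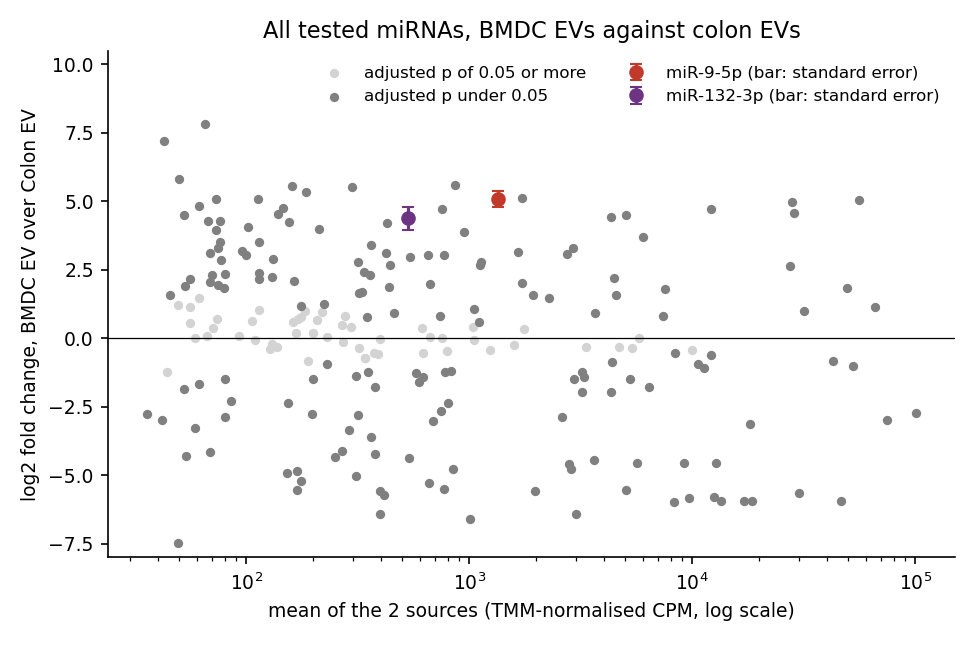
Log2 fold change of BMDC EVs over colon EVs for the 220 tested miRNAs against their mean level, with the 2 tested members marked. miR-9-5p at 5.09 and miR-132-3p at 4.38 lie in the upper part of the range, where the median of all tested miRNAs is 0.19.

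The other 4 arms were scarce and were not tested at the count minimum. miR-132-5p, the partner of miR-132-3p, had 2, 0 and 0 counts in colon EVs and 32.5, 5 and 17.5 in BMDC EVs, or 207, 50.1 and 90.6 CPM in BMDC EV 1, 2 and 3. Summed over the libraries this was 2 against 55 counts, a ratio of 52.5 after scaling (exact 95% interval 13.8 to 444). The interval covers counting error only, and reads are not known to be independent molecules.

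miR-212-3p, which has the seed of miR-132-3p, was at 0 in all 3 colon EV libraries and had 8, 2 and 9.33 counts in BMDC EV 1, 2 and 3. That gave 51.8, 20.03 and 45.3 CPM in BMDC EVs, with a mean of 39.0 ± 16.8 (SD, n = 3). Taken over the 3 libraries of each source with a floor of 3 counts for the colon sum, the level was at least 12.1-fold higher in BMDC EVs. miR-9-3p, the partner of miR-9-5p, had 0.33, 0 and 0 counts in colon EVs, which round to 0, and 5.58, 3.33 and 4.5 in BMDC EVs. Its level in BMDC EVs was 38.8, 30.04 and 20.1 CPM, at least 8.27-fold higher against the same floor.

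miR-212-5p had 0, 2 and 1 counts in colon EVs and 11, 1 and 5 in BMDC EVs. Its CPM was 0, 9.94 and 6.28 against 71.2, 10.01 and 25.2, so the sources were separated only by the small gap between colon EV 2 and BMDC EV 2, which is within counting error. The summed counts, 3 against 17, gave a ratio of 10.8 (exact 95% interval 3.13 to 57.6). When all 771 miRNAs with any count were fitted, 117 (15.2%) were called higher in BMDC EVs, among them 5 of the 6 members. The adjusted p in that edgeR fit was 7.20e-07 for miR-132-5p, 0.00258 for miR-212-3p, 0.0128 for miR-9-3p and 0.122 for miR-212-5p.

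In BMDC EVs the order by mean level was miR-9-5p, miR-132-3p, miR-132-5p, miR-212-3p, miR-212-5p and miR-9-3p. The ranges of miR-9-5p, miR-132-3p and miR-132-5p did not overlap. The ranges of miR-212-3p, miR-212-5p and miR-9-3p overlapped each other, and those of miR-212-3p (up to 51.8 CPM) and miR-212-5p (up to 71.2 CPM) reached into that of miR-132-5p, so the order of the lower members is not settled by these libraries. In colon EVs miR-9-5p was above miR-132-3p without overlap, and the other 4 were at or under 9.94 CPM in every library. The gap between miR-9-5p and miR-132-3p was 63.6 against 57.6 CPM, on 32 and 29 counts of colon EV 1, which is within counting error.

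The balance of the arms in EV counts differed between the 3 hairpins. In BMDC EVs the 5p arm made up nearly all counts of mir-9, the 3p arm most of those of mir-132, and the arms of mir-212 were near balance. For mir-9 the 5p arm held 98.7% (Wilson 95% interval 97.2 to 99.4) of 459 counts in BMDC EV 1, 98.9% (96.8 to 99.6) of 272 in BMDC EV 2 and 99.1% (97.7 to 99.6) of 437 in BMDC EV 3. Over the 3 libraries, 13 of 1168 counts were 3p, which is 1.11% (exact 95% interval 0.594 to 1.90). All 63 colon counts were 5p, and 0 of 63 allows a 3p share of up to 4.76% by the floor of 3 counts, or 5.69% by the exact 95% interval, so a 3p share like that of BMDC EVs was not detectable at this depth.

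For mir-132 the 5p arm held 13.2% (Wilson 95% interval 9.52 to 18.1) of 242 counts in BMDC EV 1, 7.69% (3.33 to 16.8) of 65 in BMDC EV 2 and 7.73% (4.94 to 11.9) of 233 in BMDC EV 3. The intervals of the 3 libraries overlapped. Over the libraries of a source the 5p share was 10.2% (exact 95% interval 7.77 to 13.1) in BMDC EVs and 4.35% (0.531 to 14.8) in colon EVs, the latter from 46 counts.

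For mir-212 the 5p arm held 57.9% (Wilson 95% interval 36.3 to 76.9) of 19 counts in BMDC EV 1, 33.3% (6.15 to 79.2) of 3 in BMDC EV 2 and 35.7% (16.3 to 61.2) of 14 in BMDC EV 3. Over the 3 libraries 17 of 36 counts were 5p, or 47.2% (exact 95% interval 30.4 to 64.5). Colon EVs had 3 counts of mir-212 in all, each of them 5p, which is too few to give an arm share.

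**Figure D3:**
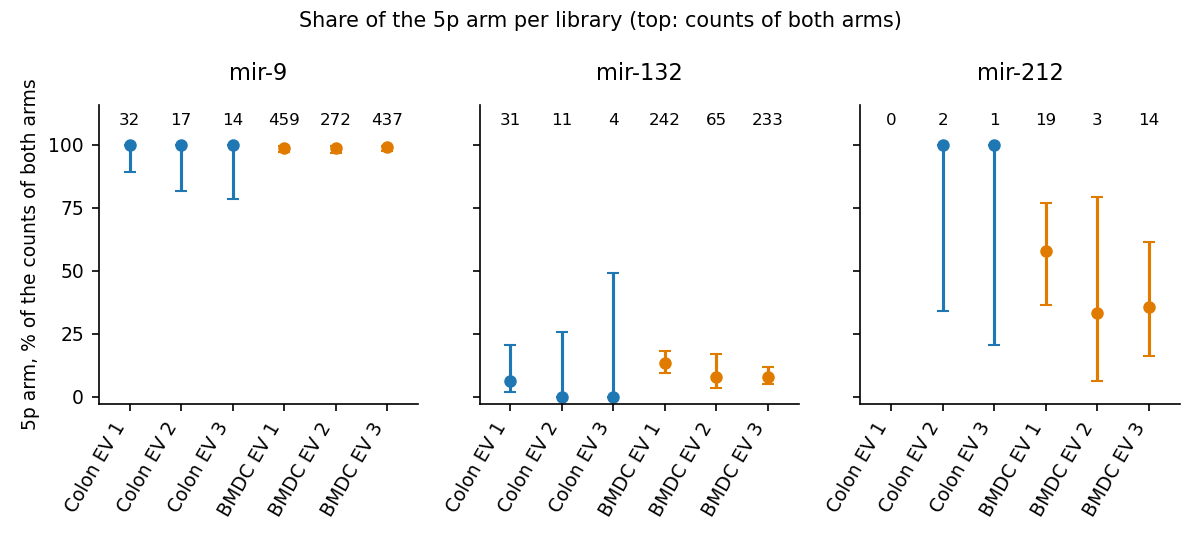
Share of each hairpin's counts in the 5p arm (percent) per library for mir-9, mir-132 and mir-212, with Wilson 95% intervals and the number of counts of both arms printed above each library. In BMDC EVs the shares were 98.7% to 99.1% for mir-9, 7.69% to 13.2% for mir-132 and 33.3% to 57.9% for mir-212, and colon EVs rest on 32 counts or fewer for each hairpin.

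Among the 150 hairpins with at least 20 counts in BMDC EVs, the share of the rarer arm had a median of 2.65%. mir-212 ranked 1 in that order, mir-132 ranked 44 and mir-9 ranked 85, with the wide interval of mir-212 given above. Arm usage between the sources could be tested in edgeR for 38 hairpins with both arms past the count minimum, of which 7 were called, and none of the 3 member hairpins was among the 38. With a minimum of 5 counts, 62 hairpins were tested and 9 called, and mir-132 was tested without passing (edgeR adjusted p = 0.564). The log2 ratio of 5p to 3p counts per library, with 0.5 added to each count, was 5.34 ± 0.609 in colon EVs and 6.33 ± 0.239 in BMDC EVs for mir-9, a difference of 0.99 (two-sided exact permutation p = 0.1, the smallest that 3 against 3 allows). That difference turned to -1.17 when 0.1 was added in place of 0.5, because the 3p arm was at 0 in every colon library. For mir-132 the log2 ratio was -3.75 ± 0.697 against -3.23 ± 0.467 (SD, n = 3 each, exact p = 0.4), a difference of 0.52. It became 2.03 with 0.1 added (exact p = 0.1) and ran from 0.13 without colon EV 2 to 0.81 without colon EV 3, so its size is not settled. No test between the sources is given for mir-212, since colon EV 1 had no count of either arm. Adjusted over 4 permutation tests, mir-212 and the share of mir-212 in the pair included, the values were 0.4 for mir-9 and 0.533 for mir-132.

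miR-132 outnumbered miR-212 in every library. Counting both arms, mir-212 made up 7.28% (exact 95% interval 4.44 to 11.1) of the counts of the pair in BMDC EV 1, 4.41% (0.919 to 12.4) in BMDC EV 2 and 5.67% (3.13 to 9.33) in BMDC EV 3. The 3 intervals overlapped. In colon EVs the shares were 0 of 31 counts, 2 of 13 and 1 of 5. Summed over each source they were 6.12% (1.28 to 16.9) in colon EVs and 6.25% (4.42 to 8.55) in BMDC EVs. The log2 ratio of mir-212 to mir-132 counts per library was -3.25 ± 2.38 in colon EVs and -3.96 ± 0.298 in BMDC EVs (SD, n = 3 each, two-sided exact permutation p = 0.6, adjusted p = 0.6). The difference of -0.70 turned to 0.16 with 0.1 added to each count and to 0.13 without colon EV 3.

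The 4 arms of mir-132 and mir-212 were low together in BMDC EV 2, a pattern chosen after its values were seen and given with no test. Relative to the mean of BMDC EV 1 and 3, the level in BMDC EV 2 was 0.492 for miR-132-3p, 0.336 for miR-132-5p, 0.412 for miR-212-3p and 0.208 for miR-212-5p. The same ratio was 1.05 for miR-9-5p and 1.02 for miR-9-3p. The 65 tested miRNAs with at least the level of miR-132-3p in BMDC EVs include miR-132-3p itself and miR-9-5p. Of these 65, 0 had a lower ratio than miR-132-3p, and their median was 0.979. Among tested miRNAs within 2-fold of a member's own level in BMDC EVs, a lower ratio was found in 0 of 44 for miR-132-3p, 7 of 64 for miR-132-5p, 3 of 24 for miR-212-3p and 1 of 24 for miR-212-5p, so at the levels of the 3 scarcer arms other miRNAs dipped as far. The ratios of miR-212-3p and miR-212-5p rest on 2 counts and 1 count in BMDC EV 2. BMDC EV 2 was the library with the lowest total, and the part of depth in the pattern was not tested.

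**Figure D4:**
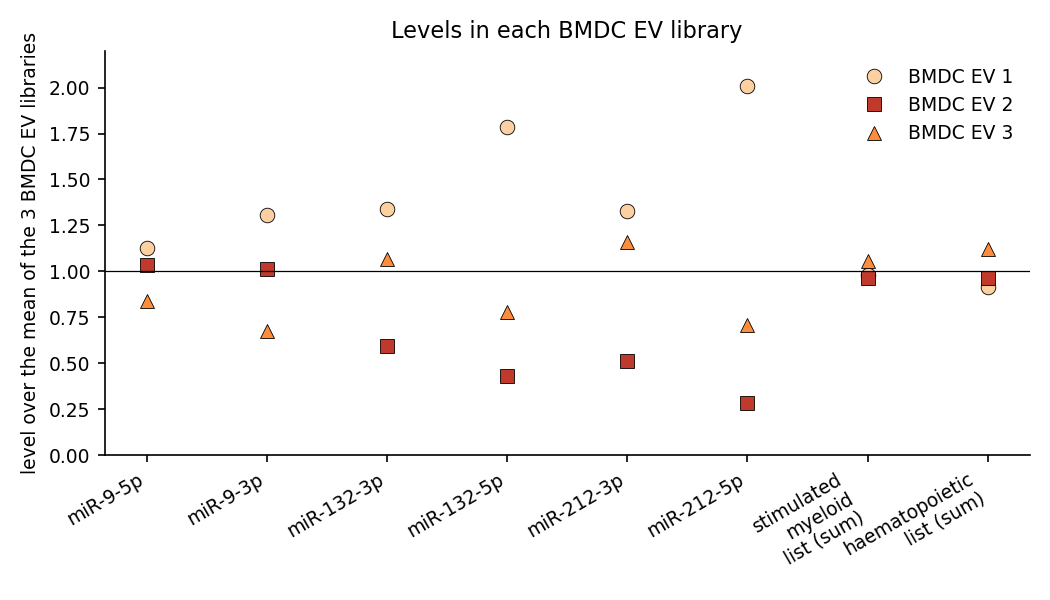
Level of each member in BMDC EV 1, 2 and 3 divided by its mean over the 3 libraries, beside the summed levels of the stimulated myeloid and haematopoietic lists. In BMDC EV 2 the 4 arms of mir-132 and mir-212 lie at 0.282 to 0.592, and miR-9-5p and miR-9-3p at 1.04 and 1.01.

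Other miRNAs linked to stimulation of myeloid cells were split between the sources, as the tested miRNAs as a whole were. Of the 18 on the list, 17 were detected and 11 tested. Of these 11, 4 had the higher level in BMDC EVs, 3 had it in colon EVs and 4 did not pass. Over all 220 tested miRNAs these numbers were 89, 80 and 51. Among those higher in BMDC EVs, miR-146b-3p had 7, 3 and 0 counts in colon EVs, so it passed the count minimum through BMDC EVs alone. The median log2 fold change of the list was 0.02 beside 0.19 over all tested miRNAs. miR-155-5p, raised in activated dendritic cells and macrophages, averaged 3255 ± 1408 CPM in colon EVs and 108551 ± 2729 CPM in BMDC EVs (log2 fold change 5.07, SE 0.340, adjusted p = 1.78e-10, edgeR). miR-146a-5p, a brake on Toll-like receptor signalling, averaged 878 ± 262 against 11193 ± 1906 CPM (log2 fold change 3.68, adjusted p = 4.15e-10). miR-21a-5p, a broadly expressed miRNA that inflammation raises, fell by 0.54 on the log2 scale in BMDC EVs (adjusted p = 0.0394), from 9897 ± 2944 to 6792 ± 420 CPM. That call was lost in 7 of 16 alternatives, among them the replicate block, upper quartile scaling and the removal of any 1 of the BMDC libraries, with a largest adjusted p of 0.937 and the same direction throughout. In BMDC EVs miR-9-5p and miR-132-3p were thus below all 3 of these in level, which were named as the most abundant of the list. Of the other listed miRNAs, miR-146b-5p (8269 CPM) and miR-125a-5p (2769 CPM) were above miR-9-5p (2602 CPM). let-7e-5p (1773 CPM) lay between miR-9-5p and miR-132-3p (1014 CPM), and miR-99b-5p (754 CPM) was below both.

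Of 26 miRNAs of neurons, where miR-9 and miR-132 are abundant, 12 were at 0 in every library. So were 1195 of all 1966 mature miRNAs, and zeros were thus not particular to this list. Both arms of miR-124, named after its values were seen, were among the 12. The list had 3 tested miRNAs. miR-184-3p rose from 11.4 ± 7.41 to 265 ± 91.6 CPM (log2 fold change 4.54, adjusted p = 1.01e-06, edgeR). It had 4, 4 and 1 counts in colon EVs, so it passed the count minimum through BMDC EVs alone and left the test when any 1 of the BMDC libraries was removed. miR-7a-5p was at 918 in colon EVs and 664 CPM in BMDC EVs (adjusted p = 0.118) and miR-128-3p at 223 and 313 CPM (adjusted p = 0.231). The summed level of the list was 1049 to 1545 CPM in colon EVs and 1292 to 1410 CPM in BMDC EVs, so it did not separate the sources.

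The cell type lists differed between the sources. The haematopoietic list went in the direction of the tested members, and the epithelial and the muscle and mesenchyme lists went the opposite way. The haematopoietic list, with 7 of 7 tested miRNAs higher in BMDC EVs (median log2 fold change 4.71), summed to 4256 to 7579 CPM in colon EVs and 139229 to 170677 CPM in BMDC EVs. Its most abundant miRNAs, miR-142a-3p, miR-223-3p and miR-342-3p, had log2 fold changes of 4.58, 4.97 and 4.71, beside 5.09 for miR-9-5p and 4.38 for miR-132-3p. The epithelial list, with 15 of 15 tested miRNAs higher in colon EVs (median log2 fold change -5.85), summed to 255466 to 392905 CPM in colon EVs and 3554 to 6880 CPM in BMDC EVs. Its leading miRNAs were miR-192-5p, miR-200c-3p and miR-200a-3p, with log2 fold changes of -5.94, -5.65 and -5.92. As given above, some of the 15 tested miRNAs passed the count minimum through colon EVs alone. The muscle and mesenchyme list, led by miR-143-3p (-4.76), miR-199a-3p (-2.35) and the untested miR-145a-5p (54.2 against 6.68 CPM), had 9 of 12 miRNAs detected and summed to 1482 to 2675 CPM in colon EVs and 64.7 to 210 CPM in BMDC EVs. The part of cell makeup in the members' difference was not tested.

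Set against the haematopoietic list, the 2 tested members did not separate the sources, a comparison chosen after the values were seen and given without a test. miR-9-5p counts were 1.49%, 1.34% and 1.16% of the summed haematopoietic counts in colon EV 1, 2 and 3, and 2.11%, 1.84% and 1.28% in BMDC EV 1, 2 and 3. miR-132-3p counts were 1.35%, 0.866% and 0.331% of them in colon EVs and 0.977%, 0.410% and 0.634% in BMDC EVs. The ranges overlapped for both miRNAs, with miR-132-3p in colon EV 3 resting on 4 counts. The overlap follows from the similar log2 fold changes of list and members given above and is no separate result. Relative to the stimulated myeloid list the ranges did not overlap. The counts of that list came mostly from different miRNAs in each source. In colon EV 1, miR-21a-5p, miR-125a-5p and let-7e-5p had 6690, 3225 and 2096 of its 14105 counts. In BMDC EV 1, miR-155-5p had 16594 of 21399. miR-9-5p was 0.227% to 0.318% of that list in colon EVs and 1.46% to 2.12% in BMDC EVs, and miR-132-3p was 0.0907% to 0.206% and 0.441% to 0.981%.

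**Figure D5:**
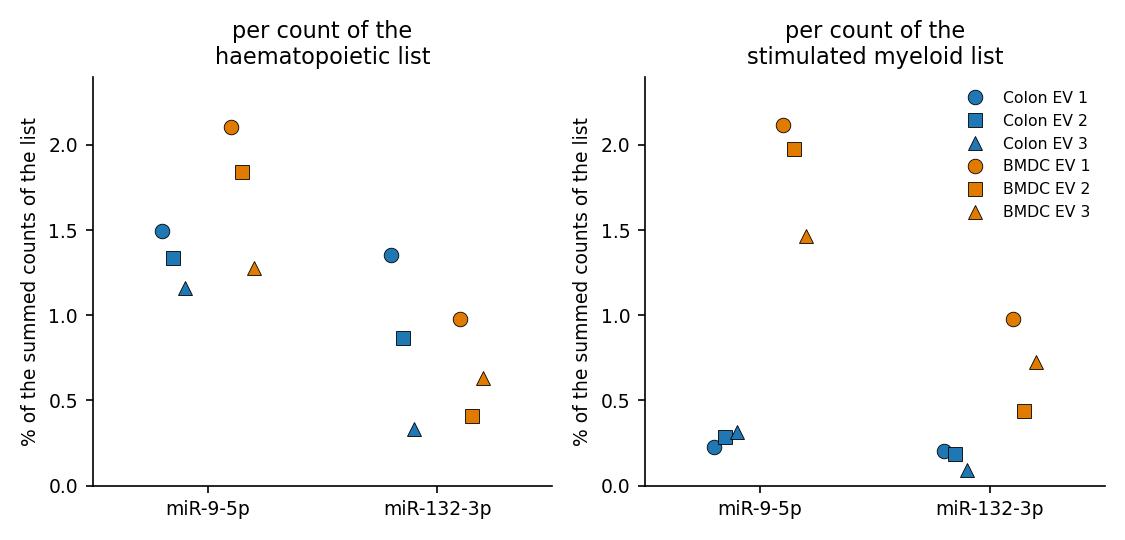
Counts of miR-9-5p and miR-132-3p as a percentage of the summed counts of the haematopoietic list and of the stimulated myeloid list in each library. Against the haematopoietic list colon EVs (1.16% to 1.49% for miR-9-5p) and BMDC EVs (1.28% to 2.11%) overlap. Against the stimulated myeloid list, whose counts come mostly from different miRNAs in each source, they do not.

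The tested miRNAs most like each member were named by the highest Pearson r of log2 CPM over the 6 libraries, which share their sources and depth, as a description. For miR-9-5p these were miR-5107-3p (r = 0.999), miR-744-5p (0.999) and miR-34a-5p (0.998), with log2 fold changes of 5.09, 2.21 and 3.10, and 77 of the 219 other tested miRNAs had an r over 0.9. For miR-132-3p they were miR-25-3p (0.990), miR-221-3p (0.985) and miR-1249-3p (0.982), with log2 fold changes of 0.94, 2.02 and 2.90, and 68 of 219 were over 0.9.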

How the data were processed

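EV RNA was prepared with a QIAseq miRNA library kit. Values for each mature miRNA were deposited as estimated counts, not normalized and not always whole. The submitters' processing notes name STAR 2.7.6a, featureCounts 1.6.3 and DESeq2 1.30.1 with GRCm38 (mm10). Use of molecular identifiers, strand and reads that match several miRNAs is not given in the sources used here. Columns were matched to libraries by the labels, with 0 left unmatched.

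Counts were rounded. Sources were compared in R 4.3.3 by the quasi-likelihood test of edgeR 4.0.16 with TMM normalization over miRNAs that had 10 or more counts in 3 or more libraries, without a block. Benjamini-Hochberg adjustment was over all 220 tested, with 0.05 as threshold. Fold changes are BMDC EVs over colon EVs. Sums without a count were given 3 counts as floor. Library totals of 83980 to 645290 counts make 3 counts worth 5.96 to 30.04 CPM. Intervals and floors cover counting error only. Scripts were tested on simulated data. Alternatives used DESeq2 1.42.0 and limma 3.58.1 (voom), other scalings and filters, a replicate block and each library left out. Figures were drawn with matplotlib 3.10.9.

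Members and lists were chosen with earlier results of these data known. Named miRNAs were the 6 members, for each tested member the 3 tested miRNAs with the highest Pearson r, the 3 most abundant of each list, and any miRNA sharing a seed. Others were named after their values were seen.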

Additional observations from a re-analysis of the deposited data

How the results depend on the processing

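In 16 alternatives miR-9-5p and miR-132-3p kept their direction and their call. The log2 fold change of miR-9-5p ran from 4.56 to 5.64 (largest adjusted p 8.08e-07) and that of miR-132-3p from 3.84 to 5.11 (largest adjusted p 7.68e-05, edgeR, DESeq2 or limma). Scaling moved the median log2 fold change of the tested miRNAs from 0.19 to 0.06 with DESeq2 size factors, 0.39 with upper quartiles and 0.64 with library size alone, and both members stayed far above it. Without the count filter 5 members were called and 3 neural miRNAs were higher in colon EVs. Library size alone gave 2 neural miRNAs higher in BMDC EVs. With 1 library left out at a time, neural miRNAs called higher in either source numbered 0 to 1, being 1 in colon EVs without colon EV 2 or without colon EV 3 and 0 in BMDC EVs without BMDC EV 3. Epithelial miRNAs higher in colon EVs numbered 9 to 15, being 9 without any 1 of the colon libraries, and hairpins called for arm usage 3 to 8, being 4 without colon EV 1 or BMDC EV 1 and 3 without BMDC EV 2 or BMDC EV 3. The mir-9 arm difference was -1.17 with a pseudocount of 0.1. The balance of mir-212 and mir-132 was 0.16 with that pseudocount and -2.06 to 0.13 with 1 library left out. With the replicate block the log2 fold changes were 5.08 for miR-9-5p and 4.40 for miR-132-3p, and the calls numbered 86 for BMDC EVs and 78 for colon EVs. Deviations of same-numbered libraries correlated at -0.145, -0.0596 and -0.133. With 3 libraries of each source, these values cannot decide whether same-numbered libraries share more than a number. Depth limits the miR-9-3p, miR-132-5p and both miR-212 arms, which rest on 55 counts or fewer per source.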
